A study of Mus musculus with 8 samples.

Results

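The liver response to T0901317, a synthetic agonist of the liver X receptors (LXRs), was examined in mice that had only their own LXR genes to respond with. The comparison used 4 of the 8 liver arrays of the study: 2 from mice given T0901317 and 2 from mice given vehicle, chosen by their titles. All 4 mice carried a green fluorescent protein (GFP) transgene as the control for a human LXRα transgene, which the other 4 mice carried. Every mouse lacked the LDL receptor gene on a C57B6 background, had been fed a Western diet over the 12 weeks before the experiment and was 8 months old. The transgene had been delivered when the mice were 10 weeks old by an adeno-associated virus (AAV2.8), under the human thyroxine binding globulin promoter, which is specific to liver. T0901317 was given at 5 mg/kg by intraperitoneal injection over 3 days. Each array held the RNA of 1 mouse, so each group had 2 mice, and this number limits the precision of every value. The LDL receptor is absent in vehicle and T0901317 mice alike, so the comparison describes the agonist in mice without that receptor on this diet.

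LXRα and LXRβ are nuclear receptors that oxysterols activate and that bind DNA as partners of retinoid X receptors. In liver they are known to switch on sterol export, fatty acid synthesis through Srebf1, and, in mice, bile acid synthesis through Cyp7a1. T0901317 is also known to bind the pregnane X receptor. Whole liver RNA was measured, so fewer cells of a type and less RNA per cell cannot be told apart in any result given here.

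Values are intensities as deposited, 1 per probe set (a group of short probes for a transcript) and array. Differences are on the log2 scale, T0901317 minus vehicle, with the standard error (SE) and the Benjamini-Hochberg adjusted p of limma, a linear model fitted to all 15838 probe sets tested on all 8 arrays. At an adjusted p under 0.05, limma called 0 probe sets (0% of 15838), so no gene is described as changed. At an unadjusted p under 0.05 there were 2083 probe sets (13.2%), 1347 of them higher with T0901317 (8.5%) and 736 lower (4.65%). Centring each array on its median moved that split to 1703 higher and 497 lower. A gene was read on its brightest tested probe set, leaving aside sets whose name ends in x_at, which can bind several transcripts, where another was tested. That gave 9359 genes, of which 369 had a brighter x_at set, on the other side of 0 in 153 of them. At an unadjusted p under 0.05 there were 1149 of these (12.3%), 853 higher (9.11%) and 296 lower (3.16%), and whatever the p, 4509 genes (48.2%) had a difference above 0 and 4848 (51.8%) below 0. The groups did not overlap, with both T0901317 livers above both vehicle livers, in 2311 genes (24.7%), and with both below in 2956 genes (31.6%). The median difference over all genes was -0.02. Counts of gene lists below are to be read against these shares.

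The 2 treatments differed in signs of RNA quality or sample preparation, which were not told apart, and these moved with every result below. The ratio of 3' to 5' signal of β-actin, which is higher where transcripts have lost their 5' part, was 7.56 and 11.04 on the T0901317 arrays, against 2.21 and 2.08 on the vehicle arrays. For Gapdh the ratios were 2.92 and 5.12 with T0901317, against 1.06 and 1.07 with vehicle. Dap, a bacterial control transcript and so not liver RNA, had ratios of 4.60 and 9.97 with T0901317, against 1.89 and 2.20 with vehicle. The hybridization control cre had 1.03 and 0.96 with T0901317, against 0.99 and 1.22 with vehicle. The ratios thus did not overlap between treatments for β-actin, Gapdh and Dap and did for cre. The part of these signs in the differences was not tested. For that reason every named gene was read on all its tested probe sets, which lie at different places along a transcript. The 5' probe set of 18S ribosomal RNA had 16.6 and 8.37 on the T0901317 arrays, against 4052 and 3668 on the vehicle arrays, and the ratio of pyruvate carboxylase was 53.0 and 60.5 with T0901317, against 4.75 and 6.78 with vehicle. As a further description, part of the lists and of the named genes are set beside a value from LXRα livers. It is LXRα T0901317 replicate 1, the T0901317 array with the lowest β-actin ratio (2.75), minus the mean of the 2 LXRα vehicle arrays. That value is called the low-ratio value below. It comes from 1 array of mice with the human transgene, so it is no replicate and has no test. That array was not free of the signs. Its ratios were 1.27 for Gapdh, 2.86 for Dap and 26.4 for pyruvate carboxylase, against 1.16 and 1.14, 1.99 and 1.67, and 8.34 and 11.2 on the LXRα vehicle arrays, and its 18S 5' signal was 31.4, against 434 and 1398 on the LXRα vehicle arrays. The low-ratio value lay on the same side as the difference for 112 of 183 named genes (61.2%) and for 6096 of all 9359 genes (65.1%).

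**Figure D1:**
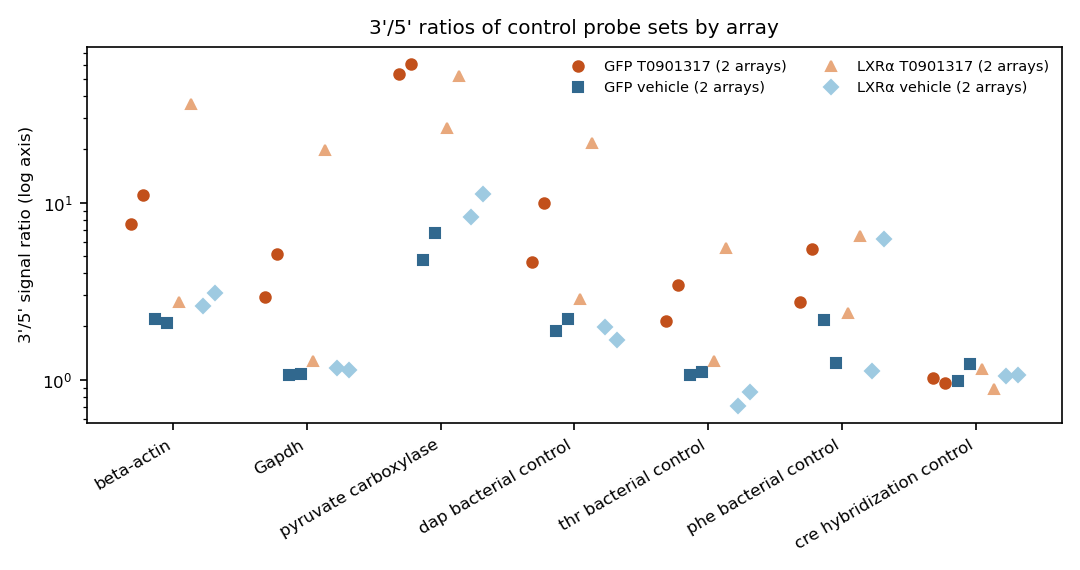
Ratio of 3' to 5' signal (log axis) of 7 control transcripts on each of the 8 arrays, by group, 1 point an array. The GFP T0901317 arrays lie above the GFP vehicle arrays for every transcript but cre, whose 4 GFP values lie between 0.96 and 1.22.

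The livers were read for hepatocyte identity and for their own receptors. Nr1h3, the gene of LXRα, had 75.8 and 98.0 in T0901317 livers, against 128 and 170.0 in vehicle livers, a difference of -0.77 (SE 0.45, adjusted p = 0.482). Rxra, the partner receptor, had 386 and 470.1 in T0901317 livers, against 492 and 492 in vehicle livers, and Nr1i2, the pregnane X receptor, had 28.0 and 27.0 in T0901317 livers, against 25.5 and 28.4 in vehicle livers. None of these receptor genes had both T0901317 livers above both vehicle livers, and Nr1h3 and Rxra were lower without overlap, Rxra by -0.21 and by -0.87 on its second probe set. The genes of LXRβ and of the LDL receptor were not analysed here. Alb, the albumin gene, was among the brightest at 25237 and 19677 in T0901317 livers, against 31022 and 26944 in vehicle livers. The 13 hepatocyte markers had a median difference of -0.05. Among them Cps1, the first enzyme of the urea cycle, had 6825 and 7181 in T0901317 livers, against 3548 and 3509 in vehicle livers, a difference of 0.99 (SE 0.19, adjusted p = 0.158). Serpinc1, antithrombin, differed the other way, by -0.54 (SE 0.20, adjusted p = 0.337).

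Cyp7a1 had the largest difference among the LXR targets, followed by Srebf1, Abcg5, Rnf145 and Abcg8. Of 16 LXR targets measured, 13 were higher and 3 lower with T0901317. In 11 of them both T0901317 livers lay above both vehicle livers and in 1 below. At an unadjusted p under 0.05, 7 were higher and 0 lower. The median was 0.37, against -0.02 over all genes, and the median low-ratio value was 0.77.

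Cyp7a1, which catalyses the first and limiting step from cholesterol to bile acids, had 713 and 543 in T0901317 livers, against 77.8 and 68.2 in vehicle livers. The T0901317 livers were far above the vehicle livers, 8.54-fold on average, a difference of 3.09 (SE 0.30, adjusted p = 0.0702). Its second probe set differed by 2.06, in the same direction, and the low-ratio value was 0.87. Abcg5, a subunit of the transporter that exports sterols into bile, had 1709.6 and 1410.1 in T0901317 livers, against 484 and 448 in vehicle livers, a difference of 1.74 (SE 0.35, adjusted p = 0.167) and a low-ratio value of 1.06. Abcg8, the other subunit, had 386 and 325 in T0901317 livers, against 126 and 107 in vehicle livers, a difference of 1.61 (SE 0.28, adjusted p = 0.146) and a low-ratio value of 0.75. Both subunits were higher in both T0901317 livers, and each was read on 1 probe set. Rnf145, a ubiquitin ligase of the endoplasmic reticulum, had 297 and 357 in T0901317 livers, against 107 and 94.2 in vehicle livers, a difference of 1.69 (SE 0.24, adjusted p = 0.127) and a low-ratio value of 2.48.

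Abca1, which loads cholesterol onto apolipoprotein A-I, depended on the probe set. The brightest one had 2047 and 1718 in T0901317 livers, against 937 and 747 in vehicle livers, a difference of 1.17 (SE 0.26, adjusted p = 0.189). The other probe sets were dimmer and lay the opposite way: one had 97.5 and 49.3 in T0901317 livers, against 194 and 127 in vehicle livers, a difference of -1.18, and another had 51.0 and 13.7 in T0901317 livers, against 209 and 97.2 in vehicle livers, a difference of -2.43. All 3 probe sets separated the treatments without overlap, so the sign of Abca1 was decided by which of them was read. The low-ratio value of the brightest was 0.80.

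The transcription factors among the targets were higher in both T0901317 livers. Srebf1, the master regulator of fatty acid synthesis genes, had 3061 and 4037 in T0901317 livers, against 1575 and 644 in vehicle livers, a difference of 1.80 (SE 0.49, adjusted p = 0.231). The vehicle livers were far apart, and the difference ranged from 1.16 to 2.45 when any of the 4 arrays was left out. Its low-ratio value was 0.13. Mlxipl, the glucose-responsive factor ChREBP, had 699 and 659 in T0901317 livers, against 408 and 248 in vehicle livers, a difference of 1.09 (SE 0.32, adjusted p = 0.254) and a low-ratio value of 0.46.

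The remaining targets had smaller differences. Scd1, stearoyl-CoA desaturase, had 18774 and 18369 in T0901317 livers, against 16941 and 16526 in vehicle livers, among the brightest signals of the array, and differed by 0.15 (SE 0.17, adjusted p = 0.672), while its other probe set differed by -1.05. Lpl, lipoprotein lipase, differed by 0.27 and -0.64 on its probe sets, and Pltp, the phospholipid transfer protein, by 0.23 and -0.22. Abcg1, a cholesterol exporter, had 348 and 344 in T0901317 livers, against 349 and 262 in vehicle livers, and Lpcat3, a phospholipid remodelling enzyme, had 555 and 522 in T0901317 livers, against 562 and 399 in vehicle livers, both with overlap. Mylip, the ubiquitin ligase of lipoprotein receptors, had 249.8 and 142 in T0901317 livers, against 136 and 137 in vehicle livers, with 1 T0901317 liver close to the vehicle livers. Smpdl3a, a phosphodiesterase, differed by -0.01. Apoe and Apoc2, apolipoproteins of triglyceride-rich particles, were lower on average at -0.28 (SE 0.18) and -0.54 (SE 0.52), the second with overlap. Of the 5 targets with several tested probe sets, only Cyp7a1 had all of them on the same side.

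**Figure D2:**
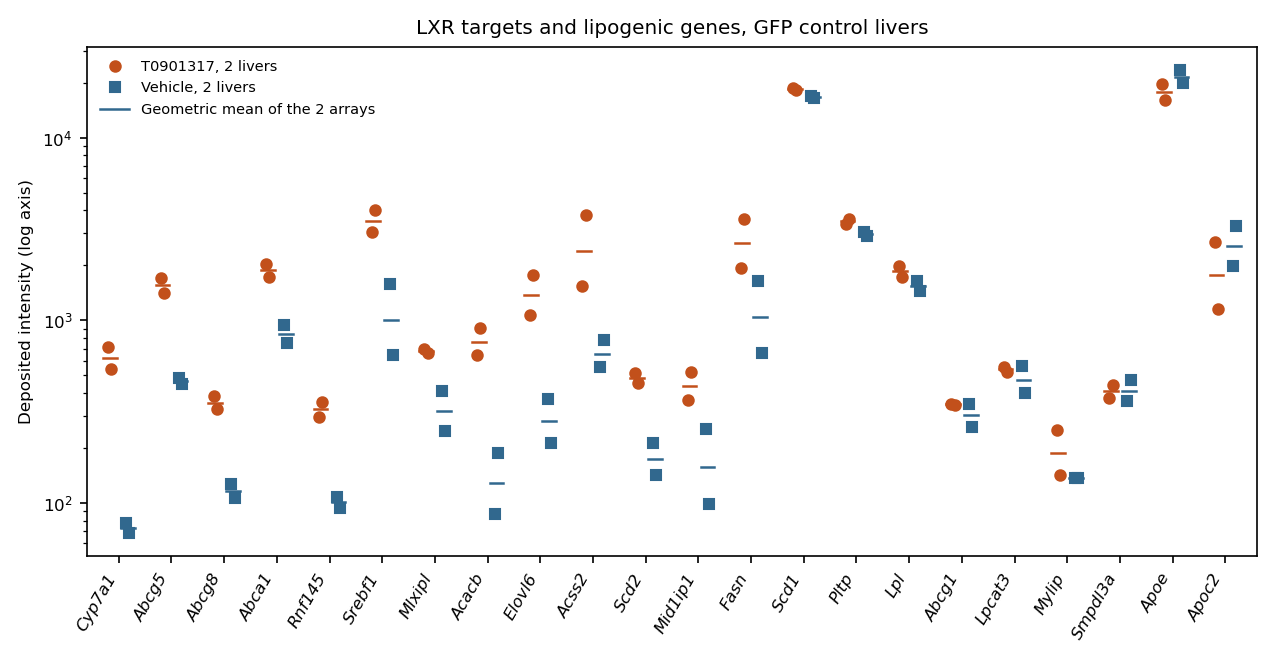
Deposited intensity (log axis) of the LXR targets and of lipogenic genes on each array, T0901317 livers left and vehicle livers right of each gene, with the geometric mean of the 2 arrays as a line. Cyp7a1 lies at 713 and 543 in T0901317 livers and at 77.8 and 68.2 in vehicle livers, while Scd1, Smpdl3a and Abcg1 lie close together.

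Promoters of the targets were searched for the repeat that LXR and its partner are known to bind. The motif was 2 copies of GGTNA in the same direction with 5 bases between them, on either strand, chosen with the known sites of LXR targets in mind, in RefSeq windows (GRCm38.p6) from 250 bases before to 50 bases after a gene start. It was present in 236 of 32851 windows (0.718%). Of the LXR targets 11 had a window, and Abca1 and Srebf1 held the motif. Cyp7a1 and Scd1 had no window, so their promoters were not searched. Of the fatty acid synthesis genes 16 had a window, and Fasn and Elovl1 held the motif. None of 14 bile acid synthesis genes and none of 13 iron handling genes with a window did, which says only that these letters are not in those windows. The stretches of these 4 genes are shown in the direction of the gene with the motif in capitals. The motif matched on the opposite strand in Abca1, Srebf1 and Fasn and on the strand of the gene in Elovl1.
Abca1 (chr4:53159908-53160002, minus strand): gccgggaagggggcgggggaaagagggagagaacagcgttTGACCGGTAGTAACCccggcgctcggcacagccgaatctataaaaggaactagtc
Srebf1 (chr11:60210599-60210693, minus strand): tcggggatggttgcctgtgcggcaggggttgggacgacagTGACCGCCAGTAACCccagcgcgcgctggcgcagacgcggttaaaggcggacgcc
Fasn (chr11:120824718-120824797, minus strand): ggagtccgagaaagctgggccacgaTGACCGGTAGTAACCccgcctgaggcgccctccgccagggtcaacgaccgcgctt
Elovl1 (chr4:118429497-118429591, plus strand): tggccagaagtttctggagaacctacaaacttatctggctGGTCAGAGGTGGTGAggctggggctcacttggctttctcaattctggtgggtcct
The motif began 67 bases before the start in Abca1, 182 in Srebf1, 225 in Fasn and 164 in Elovl1. Abca1 and Fasn held the same letters there. A match describes the letters and is no evidence of binding in these livers.

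Enzymes of fatty acid synthesis were split between large positive and smaller negative differences. Of 19 genes measured, 12 were higher and 7 lower, 8 and 4 of them without overlap, and the median was 0.18. With brighter x_at sets allowed the median was 0.77, which is the value of Elovl1 on its x_at set. At an unadjusted p under 0.05, 6 were higher and 2 lower. The median low-ratio value was 1.19.

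Acss2, which makes acetyl-CoA from acetate, had 1536 and 3763 in T0901317 livers, against 556 and 776 in vehicle livers, a difference of 1.87 (SE 0.65, adjusted p = 0.306). Acacb, an acetyl-CoA carboxylase, had 646 and 903 in T0901317 livers, against 86.8 and 189 in vehicle livers, a difference of 2.58 (SE 0.76, adjusted p = 0.254). Mid1ip1, an activator of acetyl-CoA carboxylase, had 365 and 521 in T0901317 livers, against 253 and 98.5 in vehicle livers, a difference of 1.47 (SE 0.46, adjusted p = 0.276). These 3 genes were higher in both T0901317 livers, although livers of a group were far apart, the vehicle livers for Acacb and Mid1ip1 and the T0901317 livers for Acss2. Acaca, the other carboxylase, was too dim to be tested. Fasn, the fatty acid synthase, had 1945 and 3585 in T0901317 livers, against 1643 and 659 in vehicle livers, a difference of 1.34 (SE 0.56, adjusted p = 0.374). Fasn was chosen after its values were seen, as was Scd2.

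The elongase Elovl6, which extends palmitate, had 1075 and 1766 in T0901317 livers, against 371 and 213 in vehicle livers, a difference of 2.29 (SE 0.51, adjusted p = 0.189), and 2.34 on its second probe set. Scd2, a desaturase, had 514 and 456 in T0901317 livers, against 212 and 141 in vehicle livers, a difference of 1.48 (SE 0.58, adjusted p = 0.35). Acss2 and Scd2 also had a second probe set on the same side, at 1.81 and 0.60. That of Scd2 overlapped, with 83.2 and 27.0 in T0901317 livers, against 28.9 and 33.7 in vehicle livers. Low-ratio values of Acacb, Elovl6, Acss2, Scd2, Mid1ip1 and Fasn lay between 1.48 and 4.70. Elovl1, an elongase of very long chains, had 65.1 and 72.0 in T0901317 livers, against 183 and 170.1 in vehicle livers on the probe set read, a difference of -1.37 (SE 0.51, adjusted p = 0.333). Its 2 x_at sets lay the other way, at 0.69 and, on the brightest of the 3, 0.77, with 271 and 404 in T0901317 livers, against 236 and 159 in vehicle livers on that one. Taldo1, transaldolase of the pentose phosphate pathway, had 713 and 693 in T0901317 livers, against 1101 and 1003 in vehicle livers, a difference of -0.58 (SE 0.22, adjusted p = 0.346).

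Bile acid genes differed in both directions. Of 21 bile acid synthesis genes, Cyp7a1 among them, 10 were higher and 11 lower, with a median of -0.0028. Without overlap 6 were higher and 6 lower, beside shares of 24.7% higher and 31.6% lower over all genes. Cyp8b1, which sets the cholic acid share, had 164 and 111 in T0901317 livers, against 472 and 406 in vehicle livers, a difference of -1.70 (SE 0.38, adjusted p = 0.189). It lay opposite to Cyp7a1, and its low-ratio value was -2.61. Nr0b2, the repressor SHP that acts on both enzymes' genes, had 127 and 88.3 in T0901317 livers, against 191 and 215 in vehicle livers, a difference of -0.94 (SE 0.32, adjusted p = 0.301) and a low-ratio value of -1.21. Klb, the co-receptor through which Fgf15 from the gut acts on hepatocytes, had 82.3 and 109 in T0901317 livers, against 48.5 and 38.9 in vehicle livers, a difference of 1.13 (SE 0.24, adjusted p = 0.182) and a low-ratio value on the other side, -0.46. Nr5a2, the activator LRH-1, had 375 and 672 in T0901317 livers, against 248 and 296 in vehicle livers, a difference of 0.89 (SE 0.34, adjusted p = 0.342). All 3 of its tested probe sets were higher, with a low-ratio value of -0.19 on the one read. A further Nr5a2 probe set, too dim to be tested, differed by -0.05. Hnf4a, a hepatocyte transcription factor, differed by 0.59 on the probe set read and by -2.80, -1.33 and 0.09 on its others.

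Of 11 bile transport genes, 6 were higher and 5 lower, with a median of 0.26, or -0.0082 without T0901317 replicate 1. The low-ratio median was -0.15. Both canalicular exporters named were higher. Abcb11, the bile salt export pump, had 1211 and 1588 in T0901317 livers, against 866 and 504 in vehicle livers, a difference of 1.07 (SE 0.31, adjusted p = 0.248). Abcc2, which exports bilirubin and drug conjugates, had 1339 and 1473 in T0901317 livers, against 843 and 560.0 in vehicle livers, a difference of 1.03 (SE 0.31, adjusted p = 0.254). The low-ratio values of Abcb11 and Abcc2 were -0.15 and 0.65. Slco1b2, an uptake transporter of the sinusoidal side, had 3353 and 2792 in T0901317 livers, against 5331 and 4474 in vehicle livers, a difference of -0.67 (SE 0.23, adjusted p = 0.303). Its other tested probe sets differed by -3.41, -0.08 and 0.53. Slc10a1, the bile salt uptake carrier, differed by 0.43 and -0.27 on its probe sets.

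Genes of sterol synthesis depended on the T0901317 liver. The 21 genes had a median of 0.26, with 17 higher and 4 lower, but only 4 and 2 without overlap and 0 at an unadjusted p under 0.05. Against the mean of the vehicle livers the median was -0.15 in T0901317 replicate 1 and 0.80 in replicate 2. Sqle, squalene epoxidase, had 55.3 and 69.2 in T0901317 livers, against 26.7 and 37.9 in vehicle livers, a difference of 0.96 (SE 0.43, adjusted p = 0.402). Dhcr7, the last reductase of the pathway, had 244 and 413 in T0901317 livers, against 191 and 203 in vehicle livers, and Insig2, which retains the sterol sensor in the endoplasmic reticulum, had 1258 and 1057 in T0901317 livers, against 2361 and 1292 in vehicle livers, lower on all 3 of its probe sets.

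Genes of triglyceride storage and lipid droplets were split. Of 20 genes, 9 were higher and 11 lower, with a median of -0.11, or 0.047 without T0901317 replicate 2. The low-ratio median was 0.10. The largest differences were negative: Fitm1, a droplet-forming membrane protein, had 123 and 78.0 in T0901317 livers, against 302 and 438 in vehicle livers, a difference of -1.89 (SE 0.54, adjusted p = 0.247). Cidec, which enlarges lipid droplets, had 168 and 38.0 in T0901317 livers, against 274 and 305 in vehicle livers, a difference of -1.86 (SE 0.76, adjusted p = 0.37). The T0901317 livers were far apart for Cidec, and its low-ratio value was 1.68, on the other side. Plin2, a droplet coat protein, had 4499 and 4353 in T0901317 livers, against 8943 and 5888 in vehicle livers, with a low-ratio value of 1.35. Pnpla2, the triglyceride lipase, was higher, at 499 and 293 in T0901317 livers, against 241 and 231 in vehicle livers, a difference of 0.70 (SE 0.32, adjusted p = 0.414).

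Targets of PPARα, the receptor that drives fatty acid oxidation, had a median of -0.13, with 9 of 23 higher, 14 lower and 1 lower at an unadjusted p under 0.05. Against the mean of the vehicle livers the median was 0.17 in T0901317 replicate 1 and -0.32 in replicate 2. The low-ratio median was 0.45. The gene at that p was Vnn1, a pantetheinase, with 928 and 476 in T0901317 livers, against 1416 and 1328 in vehicle livers, a difference of -1.04 (SE 0.37, adjusted p = 0.312). Ehhadh, a peroxisomal oxidation enzyme, had 4182 and 2548 in T0901317 livers, against 1653 and 1779.8 in vehicle livers, and Cpt2, which frees acyl-CoA in mitochondria, had 1247 and 946 in T0901317 livers, against 728 and 691 in vehicle livers. The other tested probe set of Cpt2 differed by -0.0019, with overlap. Acaa2, Acadl and Hadha, enzymes of mitochondrial oxidation, lay lower in both T0901317 livers, at -0.47, -0.49 and -0.58.

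Lipoprotein and drug metabolism genes had medians near 0. The 17 apolipoprotein and lipoprotein genes had a median of 0.07, or -0.033 without vehicle replicate 1. Lrp1, the remnant receptor, had 880.4 and 1519 in T0901317 livers, against 479 and 479 in vehicle livers, a difference of 1.27 (SE 0.32, adjusted p = 0.216) and a low-ratio value of -0.35. Apoa4, an apolipoprotein that varies with lipid load, had 12965 and 2063 in T0901317 livers, against 18593 and 15081 in vehicle livers, a difference of -1.70 (SE 0.77, adjusted p = 0.41) that lay mostly in T0901317 replicate 2, and -0.92 on a brighter x_at set, with overlap. The 22 targets of the pregnane X and constitutive androstane receptors had a median of 0.12, or -0.12 without T0901317 replicate 1 and -0.0091 without vehicle replicate 1. Of these, 13 were higher, 9 lower, 0 higher and 1 lower at an unadjusted p under 0.05. Cyp3a11, the classic pregnane X receptor target, chosen after its value was seen, had 5097 and 4158 in T0901317 livers, against 5498 and 4627 in vehicle livers. Nr1i3, the constitutive androstane receptor itself, had 153 and 84.5 in T0901317 livers, against 225 and 264 in vehicle livers, a difference of -1.10 (SE 0.33, adjusted p = 0.255). Of 15 glucose metabolism genes, Irs1, the insulin receptor substrate, had 99.1 and 164 in T0901317 livers, against 70.6 and 54.6 in vehicle livers, a difference of 1.04 (SE 0.34, adjusted p = 0.288), and Akt2, a kinase of insulin signalling, differed by 0.60 (SE 0.20, adjusted p = 0.297) on the probe set read and by -1.17 on its other.

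The largest difference of all named genes was that of Fabp5, a fatty acid binding protein of skin and macrophages. It had 1372 and 3692 in T0901317 livers, against 92.5 and 181 in vehicle livers, 17.4-fold higher on average, a difference of 4.12 (SE 0.58, adjusted p = 0.127). Its second probe set differed by 3.56, and the low-ratio value was 1.89. The T0901317 livers were both far above the vehicle livers, although they differed from each other as well. Fabp7 lay the other way, at 107 and 111 in T0901317 livers, against 172 and 210.2 in vehicle livers, and Fabp1, the main fatty acid binding protein of liver, chosen after its value was seen, had 25251 and 21279.5 in T0901317 livers, against 19728 and 26838 in vehicle livers, with overlap.

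Genes of iron control were higher with T0901317. Of 18 iron handling genes, 12 were higher and 6 lower, 10 and 1 without overlap, and 5 higher and 0 lower at an unadjusted p under 0.05. The median was 0.38, with a low-ratio median of 0.16. Hamp, the gene of hepcidin, the hormone that closes the iron exporter ferroportin, had 4039 and 15783 in T0901317 livers, against 536 and 822 in vehicle livers, a difference of 3.59 (SE 0.85, adjusted p = 0.199). Its second probe set differed by 3.85. Hamp2, its mouse paralog, had 820.2 and 1424 in T0901317 livers, against 54.5 and 338 in vehicle livers, a difference of 2.99 (SE 0.80, adjusted p = 0.23). That was on an x_at set, and short probes may bind both genes. The other Hamp2 probe set, too dim to be tested, had 7.53 and 8.88 in T0901317 livers, against 8.88 and 9.25 in vehicle livers. On the probe sets read, the T0901317 livers stood above the vehicle livers for both genes. Livers of a group differed several-fold, by T0901317 replicate for Hamp and by vehicle replicate for Hamp2. Low-ratio values were 1.89 for Hamp and 3.66 for Hamp2.

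Regulators of hepcidin were read beside it. Smad7, an inhibitor of BMP signalling, had 113 and 249 in T0901317 livers, against 49.7 and 56.5 in vehicle livers, a difference of 1.66 (SE 0.38, adjusted p = 0.189) and a low-ratio value of 1.49. Tfr2, a sensor of transferrin-bound iron, had 1241 and 1205 in T0901317 livers, against 759.7 and 545 in vehicle livers, a difference of 0.93 (SE 0.40, adjusted p = 0.389), and 0.96 on its second and brighter probe set, an x_at set. Ireb2, which binds iron-responsive elements of messenger RNA, had 233 and 166 in T0901317 livers, against 66.1 and 66.3 in vehicle livers, a difference of 1.57 (SE 0.30, adjusted p = 0.158), and Slc39a14, an iron and zinc importer, had 296 and 342 in T0901317 livers, against 101 and 217 in vehicle livers, a difference of 1.10 (SE 0.42, adjusted p = 0.337). On the probe sets read, these 4 regulators and carriers did not overlap between treatments. The other probe set of Slc39a14 differed by 0.19, with overlap. The low-ratio values of Ireb2, Slc39a14 and Tfr2 were -0.06, 0.04 and -0.46, unlike that of Smad7.

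**Figure D3:**
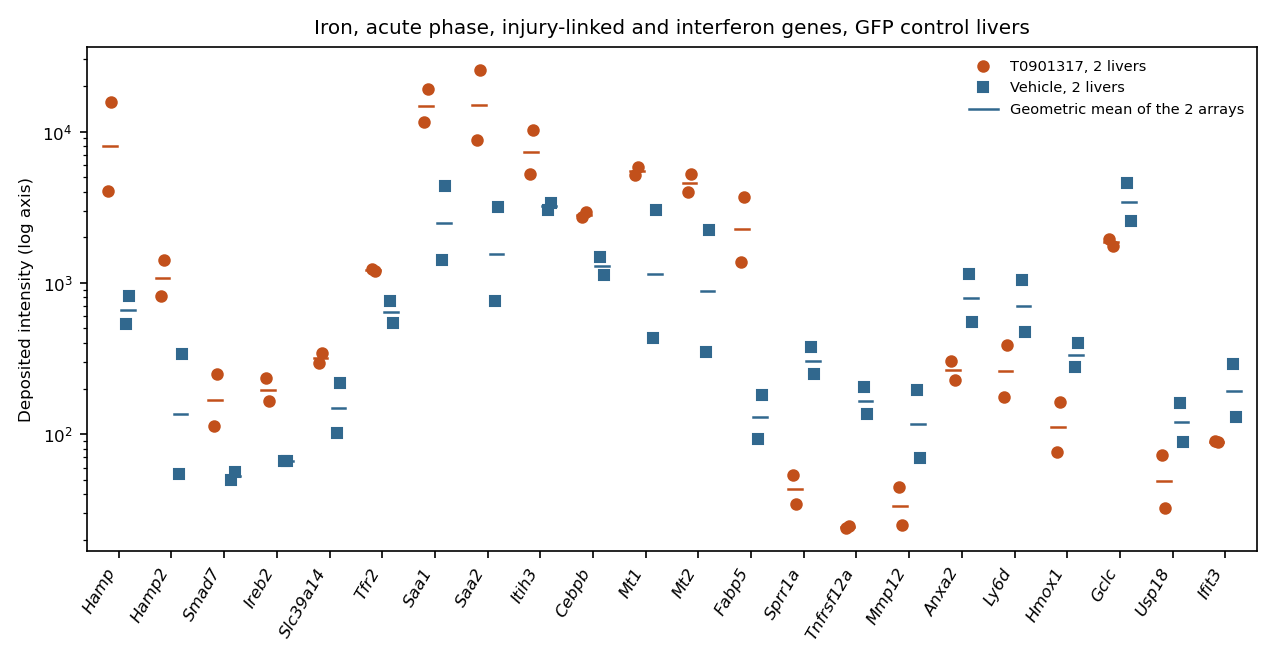
Deposited intensity (log axis) of iron, acute phase, injury-linked, antioxidant and interferon genes on each array, T0901317 livers left and vehicle livers right of each gene, with the geometric mean of the 2 arrays as a line. Hamp and Fabp5 lie higher in both T0901317 livers, and Sprr1a and Tnfrsf12a lower in both.

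Acute phase genes were higher on average, with wide gaps between livers. Of 24 genes, 21 were higher and 3 lower, 10 and 3 without overlap, and 3 higher and 1 lower at an unadjusted p under 0.05. The median was 0.78, being 0.35 in T0901317 replicate 1 and 0.93 in replicate 2, and the low-ratio median was -0.83, of the other sign. Saa2, a serum amyloid, had 8724 and 25535 in T0901317 livers, against 760.4 and 3156 in vehicle livers, a difference of 3.27 (SE 1.17, adjusted p = 0.316). Saa1, its near-identical neighbour, had 11472 and 19195 in T0901317 livers, against 1413 and 4338 in vehicle livers, a difference of 2.58 (SE 1.06, adjusted p = 0.37), and 2.32 on its second probe set. The probes of the serum amyloids may bind each other's RNA, so they count as uncertain. Itih3, an inhibitor heavy chain secreted by liver, had 5233 and 10249 in T0901317 livers, against 3033 and 3392 in vehicle livers, a difference of 1.19 (SE 0.53, adjusted p = 0.403). Cebpb, a transcription factor of the acute phase, had 2704 and 2938 in T0901317 livers, against 1486 and 1129 in vehicle livers, a difference of 1.12 (SE 0.34, adjusted p = 0.265). Hp, haptoglobin, had 13614 and 17257 in T0901317 livers, against 20417 and 20227 in vehicle livers, and Il1rn, the interleukin-1 receptor antagonist, had 64.0 and 68.8 in T0901317 livers, against 105 and 116 in vehicle livers, a difference of -0.73 (SE 0.20, adjusted p = 0.237). Both were lower on the probe set read, and the other sets of Il1rn differed by -0.83 and 0.14.

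Injury-linked genes were lower as a group but held the metallothioneins, which were higher. Of 19 genes, 6 were higher and 13 lower, 3 and 10 without overlap, and 2 higher and 6 lower at an unadjusted p under 0.05. The median was -0.69, and the low-ratio median was 1.66, of the other sign. Sprr1a, a cornified envelope protein seen in stressed tissue, had 54.0 and 34.4 in T0901317 livers, against 375 and 250.1 in vehicle livers, a difference of -2.83 (SE 0.44, adjusted p = 0.138). Tnfrsf12a, the TWEAK receptor, had 23.8 and 24.8 in T0901317 livers, against 205 and 135 in vehicle livers, a difference of -2.78 (SE 0.70, adjusted p = 0.212), and -2.66 on its second probe set. Both vehicle livers had several times the signal of both T0901317 livers for these genes. Mmp12, a macrophage elastase, had 44.6 and 25.2 in T0901317 livers, against 197 and 69.2 in vehicle livers, a difference of -1.80 (SE 0.61, adjusted p = 0.303). Anxa2, annexin A2, had 306 and 229 in T0901317 livers, against 1136 and 549 in vehicle livers, a difference of -1.58 (SE 0.55, adjusted p = 0.304), and Ly6d, a surface protein, had 175 and 389 in T0901317 livers, against 1051 and 476 in vehicle livers, a difference of -1.44 (SE 0.53, adjusted p = 0.328). The low-ratio values of these 5 genes lay between 1.65 and 4.80, all positive. Anxa2 differed by -0.25 on its other tested probe set, an x_at set. Mt1, which binds zinc and copper, had 5168 and 5814 in T0901317 livers, against 432 and 3011 in vehicle livers, and Mt2 had 3978 and 5236 in T0901317 livers, against 348 and 2219 in vehicle livers, differences of 2.27 (SE 0.94) and 2.38 (SE 1.01). Both were chosen after their values were seen, and vehicle replicate 1 was far below vehicle replicate 2 for both.

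Targets of NRF2, the factor of the antioxidant response, were mostly lower. Of 13 genes, 10 were lower and 3 higher, 8 and 1 without overlap, with a median of -0.38 and a low-ratio median of 1.17. Hmox1, heme oxygenase, had 75.7 and 162 in T0901317 livers, against 279 and 398 in vehicle livers, a difference of -1.59 (SE 0.44, adjusted p = 0.242). Gclc, of glutathione synthesis, had 1945 and 1757 in T0901317 livers, against 4592 and 2569 in vehicle livers, a difference of -0.89 (SE 0.34, adjusted p = 0.336), and Srxn1, sulfiredoxin, had 203 and 166 in T0901317 livers, against 570.2 and 278 in vehicle livers, with all 4 of its probe sets lower. Keap1, the inhibitor of NRF2, had 200.5 and 214 in T0901317 livers, against 80.3 and 97.5 in vehicle livers, a difference of 1.23 (SE 0.26, adjusted p = 0.184). It was the only gene of the list higher without overlap. Its other probe set, too dim to be tested, differed by -0.17.

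The interferon response list held 26 genes, of which 23 were lower and 3 higher. In 14 both T0901317 livers lay below both vehicle livers, and 1 was lower at an unadjusted p under 0.05. The median was -0.64, with a low-ratio median of 0.56. Ifit3, an interferon-induced effector, had 89.8 and 88.0 in T0901317 livers, against 289.9 and 129 in vehicle livers. Oasl1, of the same response, had 43.5 and 66.0 in T0901317 livers, against 158 and 73.3 in vehicle livers, a difference of -1.01 (SE 0.41, adjusted p = 0.369), and Usp18, its feedback inhibitor, had 72.7 and 32.6 in T0901317 livers, against 160.3 and 88.9 in vehicle livers. Vehicle replicate 1 was the highest of the 4 livers for these 3 genes. Without vehicle replicate 1 the list median was -0.21.

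Cell cycle genes were dim and slightly lower. Of 18 genes, 14 were lower and 4 higher, 11 and 1 without overlap, with 4 lower at an unadjusted p under 0.05 and a median of -0.25. The low-ratio median was 0.24, of the other sign. Cdk1, the mitotic kinase, had 12.2 and 16.9 in T0901317 livers, against 29.4 and 30.9 in vehicle livers, a difference of -1.07 (SE 0.18, adjusted p = 0.144). Mcm3, a subunit of the replicative helicase, had 28.1 and 33.1 in T0901317 livers, against 48.0 and 39.2 in vehicle livers. It was lower on all 4 of its tested probe sets.

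Genes of the endoplasmic reticulum stress response were split. Of 18 genes, 12 were lower and 6 higher, with a median of -0.15. Sdf2l1, a chaperone cofactor, had 76.9 and 38.5 in T0901317 livers, against 313 and 156 in vehicle livers, a difference of -2.02 (SE 0.69, adjusted p = 0.303). Pdia3 and Pdia4, disulfide isomerases, differed by -1.44 (SE 0.66) and -0.64 (SE 0.25), and Manf, a secreted stress protein, by -0.98 (SE 0.39). Their low-ratio values, and that of Sdf2l1, were negative too, between -1.14 and -0.69. Calr, the chaperone calreticulin, lay the other way, with 6181 and 8917 in T0901317 livers, against 4659.9 and 3809 in vehicle livers, and all 3 of its probe sets were higher. Its low-ratio value was -0.33, on the other side.

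Clock and output genes had a median of 0.47, with 12 of 14 higher and 2 lower. Hlf, an output factor, had 355 and 124 in T0901317 livers, against 47.6 and 83.5 in vehicle livers, a difference of 1.74 (SE 0.70, adjusted p = 0.365). Per2, a core clock repressor, had 93.7 and 36.7 in T0901317 livers, against 20.2 and 23.9 in vehicle livers, a difference of 1.42 (SE 0.46, adjusted p = 0.287), and Nr1d2, a clock nuclear receptor, had 597 and 475 in T0901317 livers, against 219 and 404 in vehicle livers. The hour at which the livers were taken is not given in the sources used here. Hsd3b5, a male-specific steroid dehydrogenase of mouse liver, was near the floor of 7.50 in every GFP liver, with 8.40 and 6.59 in T0901317 livers, against 8.10 and 6.82 in vehicle livers.

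**Figure D4:**
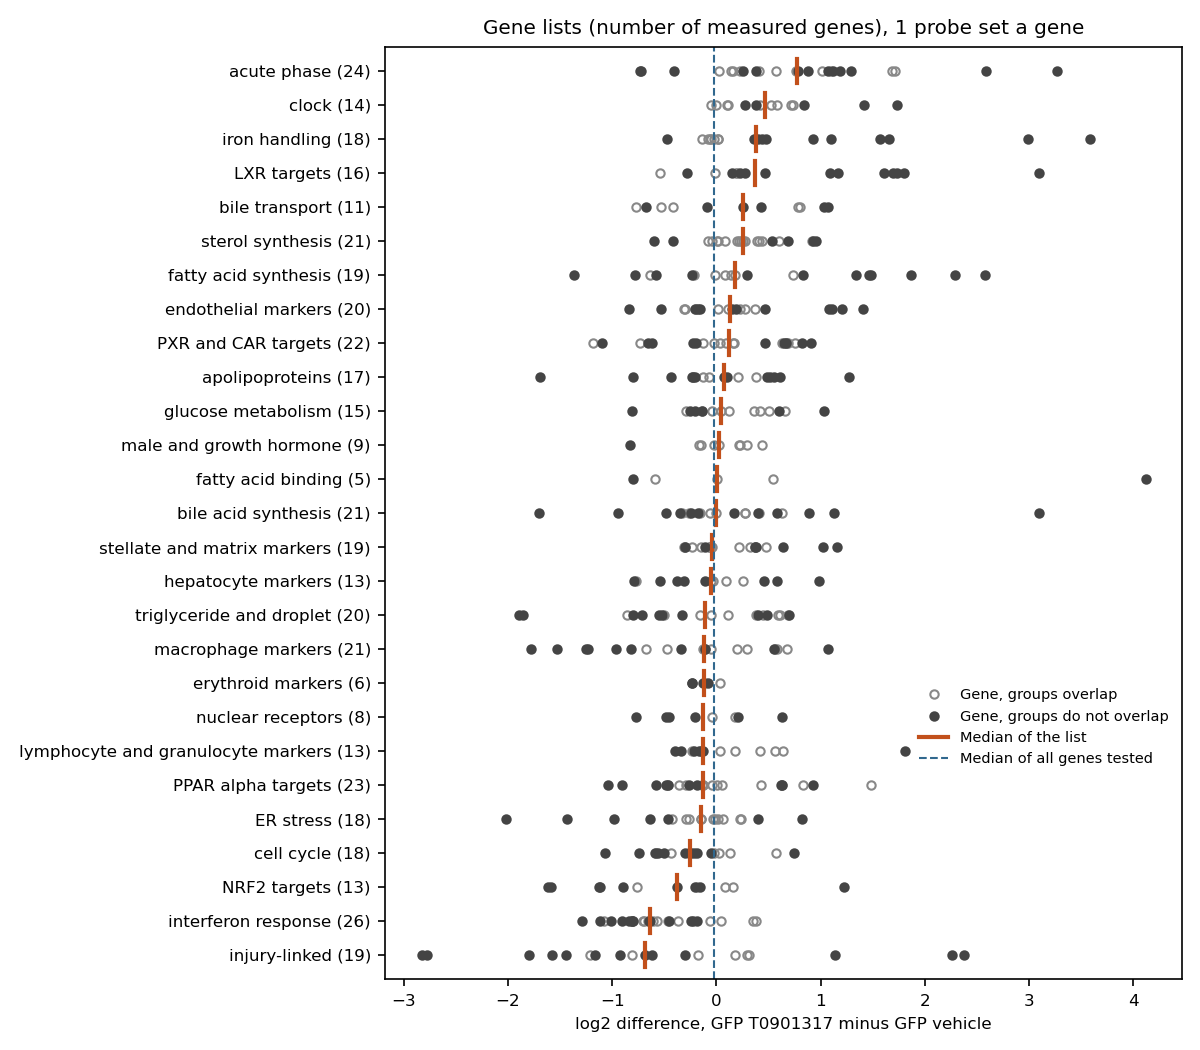
Log2 difference, T0901317 minus vehicle, of each measured gene of 27 gene lists of at least 5 measured genes, with filled points where the groups do not overlap, the list median as a bar and the median of all genes (-0.02) as a dashed line. Acute phase genes have the highest median (0.78) and injury-linked genes the lowest (-0.69), and every list holds genes on both sides of 0.

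Markers of other liver cells were read for a shift in cell makeup. The summed signal of 21 macrophage markers was 12837 and 21849.6 in T0901317 livers, against 18354 and 19418 in vehicle livers, and their median difference was -0.11. It was -0.63 in T0901317 replicate 1 and 0.12 in replicate 2. Of these markers, 7 were higher and 14 lower, 2 and 8 without overlap, and the low-ratio median was 0.85. Of the complement C1q chains, made by macrophages, C1qa had 265 and 436 in T0901317 livers, against 1146 and 1184 in vehicle livers, a difference of -1.78 (SE 0.85, adjusted p = 0.433), and C1qc differed by -0.82. The low-ratio values of both were on the other side, at 0.64 and 1.36. C1qb depended on the probe set, with -1.53 on the one read but 0.15 and 0.17, with overlap, on its x_at sets, of which 1 was the brightest. Laptm5, a lysosomal protein of blood cells, lay the other way at 157 and 216 in T0901317 livers, against 93.5 and 82.3 in vehicle livers, a difference of 1.07 (SE 0.34, adjusted p = 0.285), and only 1 of its 3 probe sets was on that side, its brightest, an x_at set, being at -0.05.

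Of 20 endothelial markers, 12 were higher and 8 lower, with a median of 0.13 (-0.11 without T0901317 replicate 1) and a summed signal of 2461 and 2481 in T0901317 livers, against 2205 and 2055 in vehicle livers. Lyve1, of sinusoidal endothelium, had 268 and 137 in T0901317 livers, against 72.5 and 95.0 in vehicle livers, a difference of 1.21 (SE 0.41, adjusted p = 0.303). Egfl7 had 97.8 and 84.9 in T0901317 livers, against 168 and 157 in vehicle livers, a difference of -0.84 (SE 0.36, adjusted p = 0.385). Its other probe sets differed by -0.51, -0.08 and -0.0013, the last 2 with overlap. The 19 stellate cell and matrix markers had a median of -0.04, or 0.38 without vehicle replicate 1 and 0.37 without T0901317 replicate 2. Of these, 9 were higher and 10 lower, 5 and 2 without overlap, and the low-ratio median was 1.26. Reln, reelin, the highest of them, had 615 and 537 in T0901317 livers, against 330.0 and 200.1 in vehicle livers, a difference of 1.16 (SE 0.33, adjusted p = 0.244). The 13 lymphocyte and granulocyte markers had a median of -0.13, with 6 higher and 7 lower, 1 and 6 without overlap. Of these, Ighm, the immunoglobulin M chain, had 601 and 619.7 in T0901317 livers, against 211 and 143 in vehicle livers, and 2 of its 7 tested probe sets were higher. The 6 erythroid markers had a median of -0.12 and the 3 cholangiocyte markers measured a median of -0.23. The part of cell makeup in the gene differences was not tested.

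Over all probe sets, 10 passed an adjusted p under 0.10 (0.0631% of those tested). Beside Cyp7a1 they belonged to Zmynd8, Mtdh, Aak1, Fam104a and Polb, higher, and Sdc3, Mia2, St3gal3 and Ubtf, lower. Zmynd8, a chromatin reader, had 105 and 87.8 in T0901317 livers, against 17.9 and 17.8 in vehicle livers, a difference of 2.43 (SE 0.22, adjusted p = 0.0641) and a low-ratio value of 2.88. Mtdh, metadherin, had 715 and 761 in T0901317 livers, against 180.3 and 183 in vehicle livers, a difference of 2.02 (SE 0.20, adjusted p = 0.0717), with its other 4 tested probe sets between -0.08 and 1.00. Aak1, a kinase of clathrin adaptors, had 147 and 121 in T0901317 livers, against 17.9 and 18.2 in vehicle livers, a difference of 2.89 (SE 0.30, adjusted p = 0.0717), but -0.09 on its other tested probe set. These genes were above the vehicle livers on the probe set that passed, and Mtdh and Aak1 far less on the rest. The low-ratio values of Mtdh and Aak1 were 1.43 and 1.21.

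Mia2, which takes part in the export of large cargo from the endoplasmic reticulum, had 6.13 and 7.60 in T0901317 livers, against 21.3 and 17.7 in vehicle livers, a difference of -1.36 (SE 0.12, adjusted p = 0.0641). The lower T0901317 value lay below the floor and the higher close to it, so the difference, its SE and its adjusted p depend on the floor. The probe sets of Sdc3, St3gal3, Ubtf, Fam104a and Polb that passed were dim, none above 75.7 on any of the 4 arrays. Sdc3, syndecan 3, differed by -1.74 (SE 0.14, adjusted p = 0.0641), and by -0.03 and 0.20 on its other probe sets. On the set that passed it had 7.70 and 7.23 in T0901317 livers, close to the floor, so that difference and its SE depend on the floor too. St3gal3, a sialyltransferase, differed by -2.12 (SE 0.22, adjusted p = 0.0717), and by -0.44 on its other. Ubtf, of ribosomal RNA transcription, differed by -1.13 (SE 0.12, adjusted p = 0.0794), and by 0.43 on its other. Fam104a differed by 1.64 (SE 0.19, adjusted p = 0.096), and by 0.01 and 0.08 on its others, and Polb, DNA polymerase β, by 1.29 (SE 0.15, adjusted p = 0.096), and by -0.30 and 0.45 on its others. Of these 5 genes, St3gal3 alone had no tested probe set that differed by under 0.1 in size or lay on the opposite side. On the sets that passed, low-ratio values were -0.45 for Mia2, -0.22 for Sdc3, -1.44 for St3gal3, -0.42 for Ubtf, 1.46 for Fam104a and 0.01 for Polb.

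The other largest differences outside the lists were taken from the 339 genes (3.62%) without overlap between treatments and with an unadjusted p below 0.01. Upward, Hdgf, a growth factor, had 251 and 304 in T0901317 livers, against 46.2 and 71.0 in vehicle livers, a difference of 2.27 (SE 0.38, adjusted p = 0.146), with -0.04 and 0.15 on its other probe sets. Zbtb20, a repressor known in liver, had 419.5 and 414 in T0901317 livers, against 94.4 and 97.8 in vehicle livers, a difference of 2.12 (SE 0.56, adjusted p = 0.224), and its others were higher as well, at 1.72 and 1.87. Zyg11b, a ubiquitin ligase subunit, differed by 2.17 (SE 0.29, adjusted p = 0.127) and Zscan26, a zinc finger protein, by 2.07 (SE 0.37, adjusted p = 0.146). Acvr2a, an activin receptor, had 93.9 and 75.5 in T0901317 livers, against 20.1 and 21.3 in vehicle livers, a difference of 2.03 (SE 0.34, adjusted p = 0.146), and 0.21 on its other probe set. Low-ratio values were 1.00 for Hdgf, 0.34 for Zbtb20, 0.02 for Zyg11b, -0.25 for Zscan26 and 0.23 for Acvr2a.

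Downward, Cd99, a surface protein, lay below the floor in both T0901317 livers on the probe set read, against 98.9 and 64.3 in vehicle livers. Its difference of -3.41 (SE 0.89, adjusted p = 0.223) therefore depends on the floor, and its other probe sets, 2 brighter x_at sets above the floor, differed by -3.11 and -2.91. Hnrnpab, an RNA-binding protein, had 581 and 199.8 in T0901317 livers, against 3304 and 2237 in vehicle livers, a difference of -2.996 (SE 0.49, adjusted p = 0.138), while its other 6 probe sets lay between -1.13 and 0.71, the brightest, an x_at set, at -0.12 with overlap. Rbbp4, a histone-binding protein, differed by -1.47 (SE 0.30, adjusted p = 0.168) and by -2.14 and, on its brightest, an x_at set, 0.91. Tug1, a long noncoding RNA, differed by -1.73 (SE 0.41, adjusted p = 0.199) and by 0.02 and 1.12 on its others. Ggact, Net1, Evi2a and Magt1, with 1 tested probe set each, differed by -1.92, -1.53, -1.49 and -1.40 (adjusted p between 0.158 and 0.23). The low-ratio values of Hnrnpab, Rbbp4, Tug1 and Ggact lay between -2.14 and -0.71. Those of Cd99, Net1, Evi2a and Magt1 were 1.52, 0.08, 1.06 and 0.04.

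How far probe sets of a gene stood on the same side was counted over the whole array. Of 3279 genes with several tested probe sets, 1442 (44.0%) had all of them on the same side. Among the 194 such genes at an unadjusted p under 0.01 whose groups did not overlap, 94 (48.5%) did. Of the 69 named genes with several, 36 had all on the same side. Named genes on the same side on every tested probe set included Fabp5, Hamp, Cyp7a1, Elovl6, Acss2, Saa1, Zbtb20, Tnfrsf12a and Cd99. Abca1, Hnf4a, Scd1, Lpl, Elovl1, Tug1 and Rbbp4 had probe sets on both sides.

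**Figure D5:**
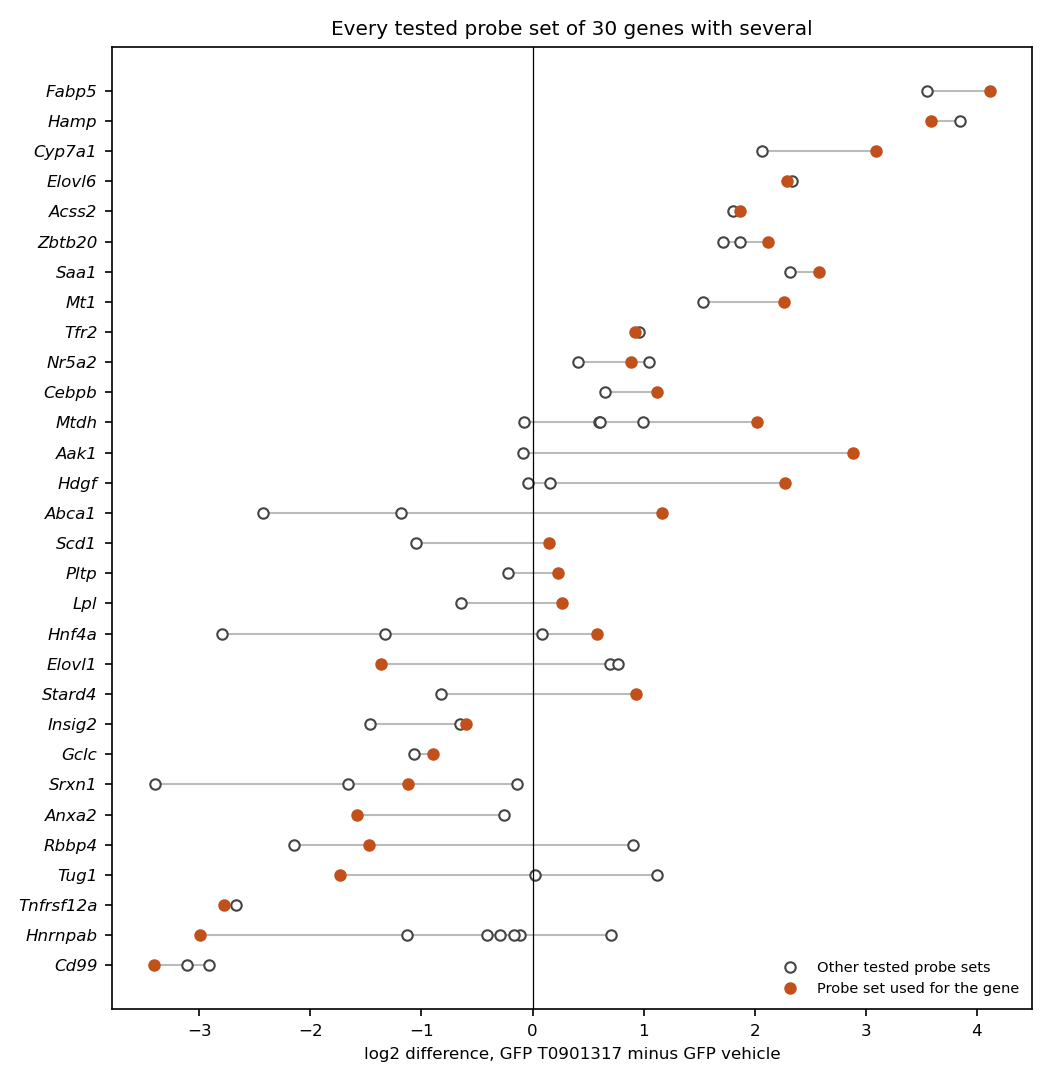
Log2 difference, T0901317 minus vehicle, of every tested probe set of 30 named genes that have several, with the probe set read for the gene filled and the others open. Fabp5 and Hamp lie between 3.56 and 4.12 on all their probe sets, whereas Abca1 runs from -2.43 to 1.17 and Hnf4a from -2.80 to 0.59.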

How the data were processed

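RNA of 8 livers was hybridised to Affymetrix arrays, 1 array per mouse. The authors deposited linear-scale intensities, with 1 value for each probe set on each array. How probes were summarised and arrays scaled is not given in the sources used here. Of 22690 probe sets, 64 controls were left out. Of the other 22626, 20380 had 1 gene symbol, 691 several and 1555 none, and 20351 symbols were updated through RefSeq. Values below a floor of 7.50 (20th percentile) were set to it before taking log2. The 15838 probe sets with a mean above the 30th percentile entered limma 3.58.1 (R 4.3.3). The fit held 4 group means over all 8 arrays, with an intensity trend in eBayes and Benjamini-Hochberg adjustment over all tested probe sets. Array medians lay within 0.141 (log2), and the deposited scaling was kept. The steps were tested on simulated data.

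Members and gene lists were chosen with earlier results of these data known, so list counts are descriptions. Named genes are receptors and Alb, all measured LXR targets, probe sets at an adjusted p under 0.10, the 12 largest differences each way at an unadjusted p under 0.01 without overlap, and up to 6 genes per list of smallest p without overlap. Hsd3b5 and the other member of a named pair were added. Fasn, Scd2, Mt1, Mt2, Cyp3a11 and Fabp1 were chosen after their values were seen. Alternatives were other normalizations, floors, filters and spread estimates, the 4 GFP arrays alone, blocks by replicate number, the β-actin ratio as a covariate, and each array left out. With the same replicate number, deviations from the group means correlated at -0.110, so the numbers were not taken to pair the livers. List genes with no probe set in the annotation used were not analysed here.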

Additional observations from a re-analysis of the deposited data

Results flagged for a closer look

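For Hsd3b5, the male-specific 3β-hydroxysteroid dehydrogenase of mouse liver, the interaction term of the limma fit set the LXRα livers against the GFP livers. The T0901317 minus vehicle difference was -6.49 in LXRα livers and 0.03 in GFP livers, which gives an interaction of -6.52 (SE 0.45, limma adjusted p = 0.0314). Intensities in LXRα livers were 5.75 and 15.0 with T0901317, against 846 and 1079 with vehicle. In GFP livers they were 8.40 and 6.59 in T0901317 livers, against 8.10 and 6.82 in vehicle livers. The 4 GFP livers thus lay near the floor of 7.50 with either treatment, and the vehicle livers with the LXRα transgene lay far above it. A lower signal with T0901317 could not have shown in GFP livers. The interaction therefore cannot tell a different response from a different level without the agonist. Of the 183 named genes, Hsd3b5 alone passed an adjusted p under 0.05 for the interaction, and the next lowest adjusted p was 0.45. Hsd3b5 was named with earlier results of these data known.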

How the results depend on the processing

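The count of 0 probe sets at an adjusted p under 0.05 was 2 without the filter. Leaving out 1 array gave 0 to 43. The LXRα T0901317 arrays, part of the fit through the shared spread alone, gave 38 (replicate 1 out) and 43 (replicate 2 out). Their β-actin ratios were 2.75 for replicate 1 and 36.3 for replicate 2. The gap between these arrays enters every SE and adjusted p of the main fit. Dropping a GFP array gave 3 for T0901317 replicate 1, 33 for vehicle replicate 1 and 1 for vehicle replicate 2. The other normalizations, floors and spread estimates gave 0. At an adjusted p under 0.10 the count of 10 was 17 with each array centred on its median, 4 without the filter, 5 with the filter at the 50th percentile, 1 without the intensity trend, 2 with the 4 GFP arrays alone and 0 once the β-actin ratio entered as covariate. It ranged from 0 to 569 with 1 array left out. With the replicate block it was 0, and with the crossed pairing, added after seeing the data, it was 0 as well. The 736 lower probe sets at an unadjusted p under 0.05 were 1177 with the 4 GFP arrays alone and 1874 with the covariate, and ranged from 435 to 1260 with 1 array left out. The 1347 higher ones ranged from 903 to 1623 with 1 array left out.

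Of 183 named genes, 163 kept their direction in every alternative run. The other 20 were reversed in at least 1, with the values below. With the covariate Rxra was at 0.37, Slc10a1 at -0.0073, Hadha at 0.10, Pck1 at 0.50, Glul at -0.057, Dcn at -0.055, Tagln at 0.56 and Hsd3b5 at -0.52. With quantile normalization Slc51a was at 0.024 and Hba-a1 at 0.0033, and with median centring Smpdl3a was at 0.055. With x_at sets allowed, an alternative added after seeing the data, 11 named genes were read on another set, and Rbbp4 was at 0.91, Elovl1 at 0.77, Cdc20 at 0.026, Laptm5 at -0.047 and C1qb at 0.15. Non-overlapping genes then numbered 2404 higher and 2886 lower. With 1 array left out, the range was -0.049 to 0.109 for Nr1i2, lowest without GFP vehicle replicate 1. It was -0.011 to 0.402 for Abcg1 and -0.063 to 0.433 for Lpcat3, lowest without GFP vehicle replicate 2, and -0.199 to 0.175 for Smpdl3a, highest without that array. It was -1.15 to 0.074 for Apoc2, highest without GFP T0901317 replicate 2, and -0.055 to 0.109 for Hsd3b5, lowest without GFP T0901317 replicate 1. The cause of these reversals was not tested. Mtdh passed an adjusted p under 0.05 without the filter, Mia2 without GFP vehicle replicate 1, and 9 named genes, among them Cyp7a1, Zmynd8, Mtdh and Aak1, without either LXRα T0901317 array. Medians of the LXR target, fatty acid synthesis, iron handling, acute phase, NRF2, interferon, cell cycle, injury-linked and clock lists kept their sign in all 22 alternatives. Alternatives that changed only the spread estimate or the block, lifted the filter or left out LXRα arrays could not move a median. The sterol synthesis median was -0.15 without GFP T0901317 replicate 2, and the macrophage median 0.12 without replicate 1.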

Other observations

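Other receptor genes of liver and genes of endothelium differed in both directions. Nr3c1, the glucocorticoid receptor, had 335 and 329 in T0901317 livers, against 248 and 184 in vehicle livers, a difference of 0.63 (SE 0.24, limma adjusted p = 0.338), with its other probe sets at -0.45 and 0.19. Pparg, a lipid-storing receptor that is low in healthy liver, had 122 and 118 in T0901317 livers, against 176 and 154 in vehicle livers, lower without overlap. Ghr, the growth hormone receptor, had 1608 and 854 in T0901317 livers, against 2173 and 1998 in vehicle livers, a difference of -0.83 (SE 0.32, limma adjusted p = 0.349), and its other probe sets were at -3.12 and 0.22. The 9 genes of the male and growth hormone list had a median of 0.03, and the 8 nuclear receptor genes one of -0.13. Flt4, a receptor of vascular and lymphatic growth factors, had 173 and 221 in T0901317 livers, against 68.5 and 79.3 in vehicle livers, a difference of 1.40 (SE 0.41, limma adjusted p = 0.25), but -0.07 on its other probe set. Cdh5, the adhesion protein of endothelial junctions, had 116 and 131 in T0901317 livers, against 53.9 and 63.3 in vehicle livers, a difference of 1.08 (SE 0.51, limma adjusted p = 0.431).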
